A study of Mus musculus with 6 samples.

Results

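The collagen genes of the mouse were followed across 3 adult bones. They were chosen by name, as the probe sets of an Affymetrix array with exactly 1 gene symbol of the form Col, a number, the letter a and a number. The rule found 82 of 45101 probe sets, which stand for 42 of the 18194 genes named on the array and for 26 collagen types. The rule uses names alone, though the family was picked with earlier results of these data known.

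Collagens are secreted proteins in which 3 alpha chains wind into a triple helix. Fibrillar collagens, of which type I is the main protein of bone matrix, assemble into the rope-like fibrils on which mineral is laid down, and the minor fibrillar chains of types V and XI join these fibrils and limit their thickness. Other types form the network of basement membranes, coat the surface of fibrils, build beaded filaments or span the cell membrane. Chains are modified and folded in the endoplasmic reticulum, trimmed outside the cell and cross-linked there by lysyl oxidases.

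The arrays held RNA of whole bone of male, skeletally mature Black CD57 mice of 24 to 26 grams, with 2 arrays each for calvaria (the skull vault), mandible (the lower jaw) and ulna (a forelimb bone). Sutures had been taken out of the calvaria, the ulna had been stripped of soft tissue and of its epiphyses, and the mandible kept its teeth. No age, treatment or genetic change is given in the sources used here. The methods speak of mice divided into 2 groups and do not tie the arrays to them, so the p-values cover differences from array to array that may be technical, and with 2 arrays a site the precision is low. The study set skull against limb bone, sites that carry different loads, and postulated that their gene expression would reflect distinct origins. It described the mouse work as a pilot to see whether arrays could be used on bone organs. The values were signal intensities scaled to the same trimmed mean on each array, and the array medians lay between 30.6 and 33.6.

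Markers of other tissues differed between the sites. The summed signal of 14 skeletal muscle genes was 9899 to 9914 in calvaria, 66715 to 68404 in mandible and 72840 to 73988 in ulna, and all 14 were lower in calvaria than in ulna. The sum of 8 tooth genes was 55.3 to 92.4, 64534 to 64724 and 89 to 105 at these sites, and 7 of the 8 were tested only because both mandible arrays lay above their median. The sum of 7 osteoblast genes other than collagens was 7214 to 7997 in calvaria, 10780 to 11279 in mandible and 3300 to 3317 in ulna, with 6 of 7 higher than in ulna at either skull site. For 8 genes of tendon and fibroblasts the sums, carried mainly by Dcn and Lum, were 18836 to 18837, 17513 to 17636 and 4222 to 4489. Of the 7 tested, 5 were higher and 1 lower than in ulna at either skull site. These counts use the calling rule given in the next paragraph. Over all tested genes 8.36% were called higher and 4.54% lower in calvaria against ulna, and 11.0% and 10.9% in mandible against ulna. In all 3 sites the signal thus came from mixed tissue, and fewer cells of a type and less RNA per cell cannot be told apart in it. The part of these tissues in the collagen differences was not tested.

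A probe set was tested when its signal lay above the median of its array on at least 2 of the 6 arrays. This held for 55 collagen probe sets, which stand for 34 genes of 24 types, and each gene was represented by its tested probe set with the highest mean. A difference was called where the adjusted p in limma was under 0.05 and the sites differed 2-fold or more. Of the 34 tested genes, 22 lay above the median on all 6 arrays. Col9a3, Col10a1, Col17a1 and Col26a1 passed the filter only through both mandible arrays, so that their height in mandible was a condition for their being tested. The 8 genes not tested were Col4a3, Col4a4, Col4a6, Col6a4, Col6a5, Col9a2, Col19a1 and Col20a1, whose 18 probe sets reached at most 39.6 and lay above the median on at most 1 array. Col4a3 and Col4a4 encode basement membrane chains known from the kidney filter, and Col9a2 a chain of the type IX collagen of cartilage.

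Most tested collagen genes were higher in skull than in limb bone. In calvaria against ulna 24 of 34 were called higher and 0 lower, where 8.36% of all tested genes were called higher and 4.54% lower. No collagen gene was lower in calvaria at its representative probe set at an unadjusted p under 0.05 by limma either. The count called lower was also 0 under the other settings. In mandible against ulna 29 of 34 were called higher and 0 lower, beside 11.0% and 10.9% of all tested genes, again with 0 lower at an unadjusted p under 0.05 by limma. Without the 4 genes that passed the filter through the mandible arrays alone, the counts were 24 and 26 of 30. Of those 30, Col4a5 and Col23a1 passed it through the skull arrays alone and were called at both skull sites, so they remain in both counts. The median log2 difference over the 34 genes was 1.87 in calvaria and 2.05 in mandible, where the medians of all tested genes were -0.05 and -0.08. Both comparisons share the ulna arrays. The 22 genes called higher than ulna at both skull sites, where 5.81% of all tested genes were so called, included fibrillar, basement membrane, beaded filament, fibril-associated and transmembrane collagens. Without moderation of the variances 20 genes were called higher in calvaria and 21 in mandible.

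The chains of type I collagen, the main fibre of bone, were among the brightest signals of the skull arrays. Col1a1, the chain present in 2 copies in the type I molecule, gave a signal of 11842 and 13503 in calvaria, 12080 and 11704 in mandible and 1494 and 1420 in ulna. Both skull sites lay far above ulna, and the calvaria and mandible arrays lay close together. The means were 12672 ± 1175 in calvaria, 11892 ± 266 in mandible and 1457 ± 52.3 in ulna (SD, n = 2). The log2 difference from ulna was 3.04 in calvaria (SE 0.07, limma adjusted p = 2.18e-10) and 2.91 in mandible (adjusted p = 6.57e-10). Col1a2, its partner chain, gave 13415 and 15725 in calvaria, 12860 and 11791 in mandible and 3463 and 3847 in ulna. Its log2 difference from ulna was 1.92 in calvaria (SE 0.08, adjusted p = 3.06e-08) and 1.64 in mandible (adjusted p = 1.12e-07). Col1a2 ranked between 3 and 21 of all probe sets on the skull arrays and between 271 and 290 on the ulna arrays. The within-array log2 ratio of Col1a1 to Col1a2 was 1.13 higher in calvaria and 1.28 higher in mandible than in ulna. This shift depended on the probe sets, at 0.42 to 1.13 in calvaria over the 3 of Col1a2 and below zero with the second probe set of Col1a1. The level of this ratio cannot be read, because probe sets differ in their response. Col1a1 ranked between 8 and 24 on the skull arrays, whose highest signals were 17235 to 18259. Whether signals so near the top are compressed was not tested, which limits this ratio and the differences between the skull sites. Between mandible and calvaria the log2 difference was -0.13 for Col1a1 (95% interval -0.28 to 0.02, adjusted p = 0.208) and -0.28 for Col1a2 (adjusted p = 0.0345, under 2-fold).

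Probe sets of Col1a1 did not move together. The second one, with a far lower signal, gave 346 and 397 in calvaria, 248 and 462 in mandible and 542 and 598 in ulna. It was lowest in the skull, with log2 differences from ulna of -0.70 in calvaria (adjusted p = 0.0392) and -0.87 in mandible (adjusted p = 0.00952), both under 2-fold. The part of the transcript that it reads was not examined here. For Col1a2 the other 2 tested probe sets gave 2.08 and 2.62 in calvaria and 1.76 and 1.89 in mandible, and both were called higher at both sites.

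Col3a1, which forms the fibrils of soft and growing connective tissue, was high at both skull sites and highest in mandible. Its signal was 9462 and 10246 in calvaria, 12303 and 12343 in mandible and 2545 and 2700 in ulna. The log2 difference from ulna was 1.83 in calvaria (SE 0.06, adjusted p = 3.66e-09) and 2.12 in mandible (adjusted p = 2.38e-09). Mandible lay above calvaria by 0.28 (adjusted p = 0.00712), which is under 2-fold. The second probe set showed the same order with wider steps, at 933 and 945, 1886 and 1905, and 122 and 117, and its difference between mandible and calvaria was 0.97 (adjusted p = 1.36e-05).

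**Figure D1:**
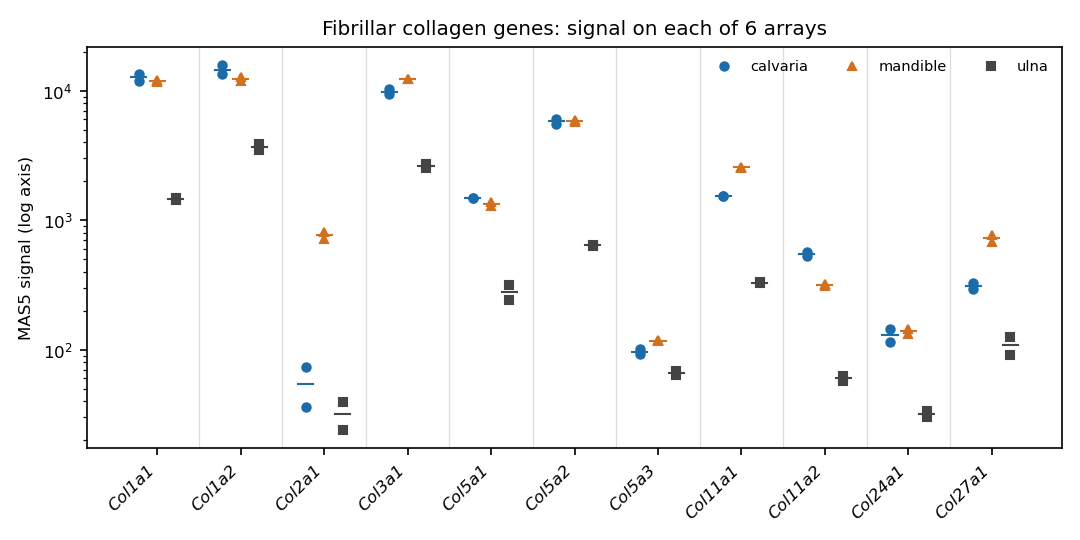
Signal of the 11 fibrillar collagen genes on each array (log axis, MAS5 signal scaled to a trimmed mean of 100), with a point for each of the 2 arrays of calvaria, mandible and ulna and a bar for their mean. Col1a1, Col1a2, Col3a1 and Col5a2 stand highest, ulna lies below both skull sites in most genes, and Col2a1 is high in mandible alone.

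Type V collagen is the minor fibrillar partner of type I, and its chains followed the same order. Col5a1 gave 1493 and 1476 in calvaria, 1297 and 1375 in mandible and 242 and 314 in ulna, a log2 difference of 2.35 in calvaria (SE 0.11) and 2.16 in mandible. Col5a2 gave 5574 and 6054 in calvaria, 5738 and 5988 in mandible and 645 and 631 in ulna. Its log2 difference was 3.11 in calvaria (SE 0.07, adjusted p = 1.57e-10) and 3.08 in mandible (adjusted p = 5.19e-10), and all tested probe sets of both genes were called higher at both sites. Skull arrays of Col5a2 overlapped, with a difference of -0.03 between mandible and calvaria (95% interval -0.17 to 0.12). Col5a3, the remaining type V chain, gave 92.2 and 101 in calvaria, 118 and 116 in mandible and 64.1 and 68.8 in ulna and was not called in any comparison. Its difference in mandible was 0.70 (adjusted p = 0.01), under 2-fold.

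Type XI collagen, the cartilage counterpart of type V, was also measured in both of its own chains, which differed in their order between the skull sites. Col11a1 gave 1538 and 1529 in calvaria, 2536 and 2568 in mandible and 325 and 333 in ulna. Col11a2 gave 527 and 565 in calvaria, 312 and 323 in mandible and 62.8 and 57.3 in ulna. Both were higher than ulna at both sites, by 2.14 and 2.84 for Col11a1 (SE 0.07) and by 3.11 and 2.29 for Col11a2 (SE 0.12) on the log2 scale. In mandible against calvaria Col11a1 was higher by 0.69 (adjusted p = 5.17e-05) while the difference of Col11a2 was -0.82 (adjusted p = 0.000647), each under 2-fold. The within-array log2 ratio of Col11a1 to Col11a2 was 1.54 and 1.44 in calvaria, 3.02 and 2.99 in mandible and 2.37 and 2.54 in ulna, with no overlap between sites. A second probe set of Col11a1 differed by 1.25 between mandible and calvaria (adjusted p = 3.92e-06) and was called.

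Col2a1, the fibrillar collagen of cartilage, stood out in mandible. Its signal was 813 and 711 there, 72.9 and 36 in calvaria and 23.9 and 39.7 in ulna. Mandible was higher than ulna by 4.51 (SE 0.32, adjusted p = 1.19e-06) and higher than calvaria by 3.85 (adjusted p = 1.28e-05) on the log2 scale. Calvaria and ulna overlapped, with a difference of 0.66 (95% interval -0.05 to 1.37, adjusted p = 0.152), which became 1.17 and was called when calvaria array 2 was left out (adjusted p = 0.0196). The summed signal of 9 cartilage genes other than collagens was 411 to 419 in calvaria, 567 to 586 in mandible and 314 to 330.2 in ulna. Of these 6 were tested, Cnmd and Hapln1 only through the mandible arrays.

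The remaining fibrillar genes were Col24a1 and Col27a1. Col24a1, expressed in developing bone, gave 143 and 114 in calvaria, 144 and 133 in mandible and 33.5 and 30.1 in ulna, a log2 difference of 1.93 and 2.01 at the skull sites (SE 0.20). Col27a1, a collagen of cartilage and other growing tissue, gave 292 and 329 in calvaria, 772 and 683 in mandible and 126 and 91.5 in ulna. It differed between all 3 sites, by 1.45 in calvaria and 2.64 in mandible against ulna (SE 0.15) and by 1.19 between mandible and calvaria (adjusted p = 0.000225). Its second probe set gave 1.86, 3.68 and 1.82 for the same comparisons. In all, 9 of 11 fibrillar genes were called higher than ulna in calvaria and 10 of 11 in mandible. The exceptions were Col2a1 in calvaria and Col5a3 at both sites. Over the whole family the counts were 24 and 29 of 34, and over all tested genes the shares were 8.36% and 11.0%.

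The 3 tested basement membrane chains were higher in skull than in ulna. Col4a1, 1 of the chains found in nearly all basement membranes, gave 671 and 695 in calvaria, 925 and 991 in mandible and 249 and 260.2 in ulna. Col4a2, its partner, gave 276 and 305, 369 and 330.1, and 134 and 117 at these sites. The log2 differences from ulna were 1.35 and 1.79 for Col4a1 (SE 0.09) and 1.14 and 1.36 for Col4a2 (SE 0.13), smaller than those of most fibrillar genes. Col4a1 and Col4a2 are neighbours on 1 chromosome. Of 10 endothelial markers, whose vessels carry such membranes, 1 was higher and 1 lower than ulna at either skull site. Over all tested genes 8.36% were called higher and 4.54% lower in calvaria, and 11.0% and 10.9% in mandible. The marker counts lie near these shares.

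Col4a5, a basement membrane chain encoded on the X chromosome, gave 34.5 and 50.3 in calvaria, 111 and 90.4 in mandible and 14.3 and 5.97 in ulna. It was called higher in calvaria (log2 difference 2.10, SE 0.47, adjusted p = 0.00613) and in mandible (3.33, adjusted p = 0.000192). A second probe set disagreed in calvaria, where it gave 12.6 and 7.42 against 21.4 and 36 in ulna and was called lower (difference -1.60, adjusted p = 0.0479), the only collagen probe set so called. It was not called in mandible against ulna (0.66, adjusted p = 0.355) but was in mandible against calvaria (2.26, adjusted p = 0.0126). In calvaria the higher call of the first probe set ended when calvaria array 2 was left out (adjusted p = 0.0621). Between mandible and calvaria the difference of 1.23 (adjusted p = 0.0871) was called when ulna array 1 or 2 was left out (adjusted p = 0.0306 and 0.0189).

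The chains of type VI collagen, which forms beaded filaments around cells, moved together. Col6a1 gave 953 and 997 in calvaria, 1090 and 935 in mandible and 244 and 241 in ulna. Col6a2 gave 1154 and 1267, 1182 and 1127, and 227 and 273 at these sites. Col6a3 gave 1179 and 1292, 1043 and 1063, and 332 and 327. All 3 were called higher at both skull sites, with log2 differences from 1.83 to 2.20 in calvaria and from 1.56 to 2.10 in mandible. Between the skull sites they differed by 0.01 (95% interval -0.19 to 0.21), -0.11 (-0.34 to 0.12) and -0.27 (-0.45 to -0.09), none of them called.

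The short chain collagens of type VIII, found in vessel walls and in the membrane under the corneal endothelium, were highest in calvaria. Col8a1 gave 807 and 664 in calvaria, 253 and 280.0 in mandible and 151 and 138 in ulna. Calvaria was higher than ulna by 2.27 (SE 0.13, adjusted p = 2.42e-07) and mandible was lower than calvaria, with a log2 difference of -1.50 (adjusted p = 1.33e-05). Col8a2 gave 377 and 393 in calvaria, 61.8 and 89.1 in mandible and 31.1 and 36.7 in ulna, so that calvaria was 10.8-fold higher than ulna (adjusted p = 6.51e-07) and 5.33-fold higher than mandible (adjusted p = 2e-05). Against ulna, mandible differed by 0.77 for Col8a1 (adjusted p = 0.000558, under 2-fold) and by 1.02 for Col8a2 (SE 0.21, adjusted p = 0.00287). That call of Col8a2 lies at the 2-fold limit and ended without mandible array 2 (difference 0.75) or ulna array 1 (0.89). A second probe set of Col8a1 was called in mandible against ulna at 1.06 (adjusted p = 0.00343). Among other tissues, the summed signal of 8 meningeal markers was 1908 to 2368 in calvaria, 528 to 562 in mandible and 198 to 216 in ulna. Ptgds and Slc47a1 carried it in calvaria, and Crabp2 was highest in mandible. Of the 6 tested markers 3 were called higher in calvaria than in ulna, beside 8.36% of all tested genes. In mandible against calvaria 1 was called higher and 2 lower, beside 5.14% and 4.01% of all tested genes. The 1 higher was Crabp2, which was tested only through the mandible arrays. Crabp2 was also among the 3 higher in calvaria, where its signal lay below the array median.

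Col22a1 and Col14a1 were also highest in calvaria, and both encode collagens that sit on the surface of fibrils. Col22a1, known from the junction of muscle and tendon, gave 588 and 541 in calvaria, 221 and 199 in mandible and 85.8 and 94.3 in ulna. The sites did not overlap, and calvaria was higher than ulna by 2.57 (SE 0.13, adjusted p = 8.81e-08) while mandible against calvaria differed by -1.47 (adjusted p = 1.56e-05). Its other 2 probe sets were also called higher in calvaria than in ulna, and lower in mandible than in calvaria, but neither was called in mandible against ulna (0.51 and -0.07, where the representative one gave 1.10). The 14 muscle markers were lowest in calvaria. Of the tendon and fibroblast genes Tnmd had means of 993 in calvaria, 337 in mandible and 70.9 in ulna, and Dpt of 852, 229 and 126. This is the same order as Col22a1, and Dcn and Fmod shared it. The other tested genes of that list did not. Thbs4 was lowest in calvaria at 23.9, against 826 in mandible and 373 in ulna. Lum was highest in mandible (5135 in calvaria, 6225 in mandible, 961 in ulna), and Pi16 was lowest there (153, 34.1 and 104). Col14a1, a fibril-associated collagen of tendon and skin, gave 164 and 215 in calvaria, 75.8 and 99.6 in mandible and 58.2 and 48.4 in ulna. It was higher in calvaria than in ulna by 1.75 (SE 0.22, adjusted p = 0.000143). In mandible against ulna it differed by 0.59 (adjusted p = 0.048, under 2-fold), and the difference between mandible and calvaria was -1.15 (adjusted p = 0.00323). The latter fell under 2-fold without calvaria array 2 (-0.96) or mandible array 1 (-0.95).

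Other fibril-associated genes were high in both skull bones. Col12a1, a collagen of tendon, periosteum and other loaded tissue, gave 611 and 542 in calvaria, 795 and 928 in mandible and 104 and 106 in ulna, with log2 differences from ulna of 2.38 and 2.91 (SE 0.11). Col16a1 gave 588 and 676, 641 and 543, and 114 and 113, with differences of 2.40 and 2.26 (SE 0.12). A second probe set of Col12a1 gave smaller differences, 1.52 and 1.95, and was called at both sites.

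Type IX collagen coats the type II fibrils of cartilage, and its chains were low outside the mandible. Col9a1 gave 123 and 115 in mandible, 46.6 and 59 in calvaria and 22.2 and 57.3 in ulna, where the 2 arrays differed widely. It was called in mandible against ulna (1.62, SE 0.38, adjusted p = 0.00587), but without ulna array 1 the difference was 0.93. Without ulna array 2 it was called in calvaria too (1.17, adjusted p = 0.0205), and without either ulna array in mandible against calvaria (1.14, adjusted p = 0.00513 and 0.00873, against 0.0575 on all arrays). Col9a3 gave 49.3 and 63.6 in mandible, 15.6 and 10.2 in calvaria and 0.927 and 4.87 in ulna, signals below the array median except in mandible. Its call in mandible against ulna (4.60, SE 1.13, adjusted p = 0.00694) ended without mandible array 1 or 2 (adjusted p = 0.0507 and 0.075). A call was gained without ulna array 2 in calvaria (3.70, adjusted p = 0.0332) and without ulna array 1 in mandible against calvaria (2.11, adjusted p = 0.0379).

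**Figure D2:**
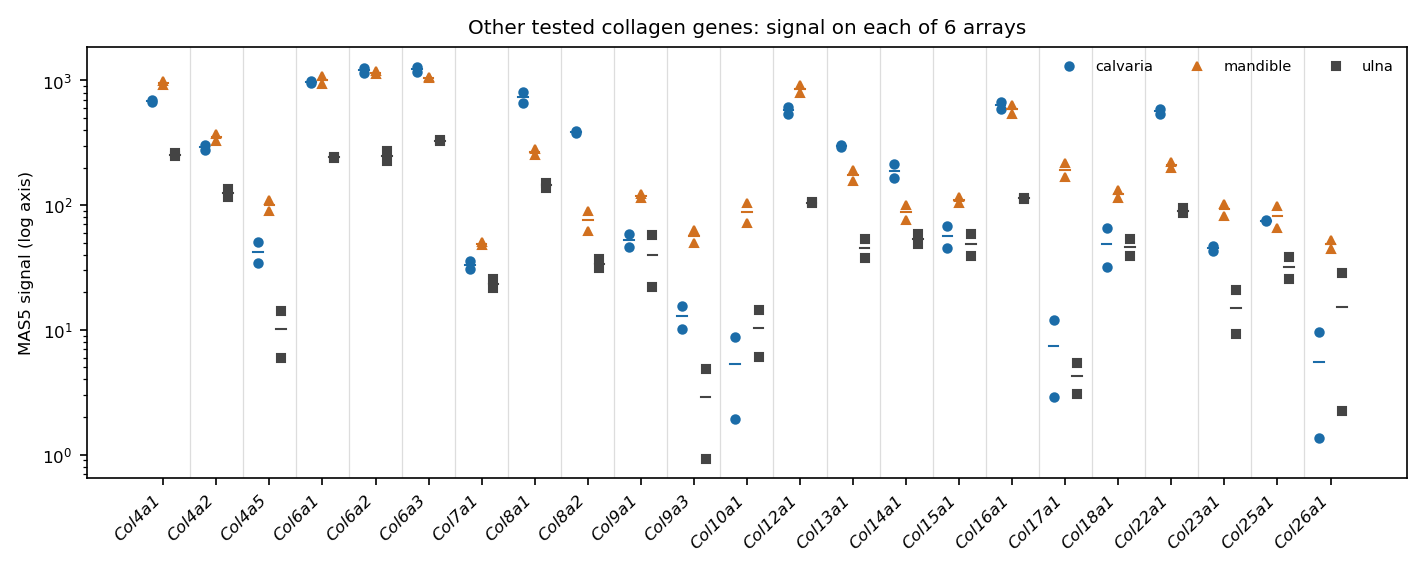
Signal of the other 23 tested collagen genes on each array (log axis, MAS5 signal scaled to a trimmed mean of 100), with a point for each of the 2 arrays of calvaria, mandible and ulna and a bar for their mean. Type VI chains show the skull sites together above ulna, Col8a1, Col8a2, Col14a1 and Col22a1 are highest in calvaria, and Col10a1 and Col17a1 are high in mandible alone.

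Col10a1, the collagen of hypertrophic cartilage, was seen in mandible at 105 and 71.3 and stood below the array median elsewhere, at 1.93 and 8.74 in calvaria and 14.5 and 6.1 in ulna. Mandible was higher than ulna by 3.08 (SE 0.94, adjusted p = 0.0209) and than calvaria by 4.36 (adjusted p = 0.0068). The first call ended without mandible array 1 or 2 or ulna array 2 (adjusted p = 0.17, 0.0893 and 0.0865) and the second without mandible array 1 or 2 (adjusted p = 0.1 and 0.0514).

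Transmembrane collagens had 4 tested genes. Col17a1, which anchors epithelial cells to their basement membrane in hemidesmosomes, gave 217 and 168 in mandible, 11.9 and 2.87 in calvaria and 5.42 and 3.07 in ulna. Mandible was higher than ulna by 5.43 (SE 0.83, adjusted p = 0.000361) and higher than calvaria by 4.99 (adjusted p = 0.00147). Without mandible array 1 the latter difference was 4.82 and no longer called (adjusted p = 0.0544). The sizes of these differences rest on signals far below the array median in calvaria and ulna. The summed signal of 10 epithelial markers was 6325 to 6452 in mandible, 232 to 245 in calvaria and 254 to 326 in ulna. Of the 9 tested markers 4, Krt14 and Trp63 among them, were tested only through the mandible arrays.

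Col13a1, a membrane collagen of adhesion sites and of the nerve-muscle junction, gave 295 and 305 in calvaria, 156 and 193 in mandible and 53.2 and 37.9 in ulna. It was higher than ulna by 2.66 in calvaria (SE 0.19, adjusted p = 1.86e-06) and by 1.83 in mandible, and mandible differed from calvaria by -0.83 (adjusted p = 0.00983, under 2-fold). Col23a1 gave 46.9 and 43.1 in calvaria, 103 and 81.7 in mandible and 21 and 9.2 in ulna. It was called in mandible (2.60, SE 0.42, adjusted p = 0.000469) and in calvaria (1.61, adjusted p = 0.0135), the latter lost without calvaria array 1, calvaria array 2 or ulna array 2 (adjusted p = 0.0724, 0.0565 and 0.0544). Of its other 2 probe sets, 1 was not called in calvaria against ulna (0.67) but was called in mandible against calvaria (1.56, adjusted p = 0.0473). Col25a1, a neuronal membrane collagen, gave 74 and 76.6 in calvaria, 98.3 and 66.1 in mandible and 38.2 and 25.5 in ulna. Its calls, at 1.20 in calvaria and 1.25 in mandible (SE 0.29), ended without calvaria array 1 or 2 in the first case (adjusted p = 0.0516 and 0.0629), without mandible array 1 in the second (adjusted p = 0.0647) and without ulna array 2 in both (0.91 and 0.97). A second probe set of Col25a1 was not called at either site.

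The multiplexins, basement membrane collagens whose ends are cut off as endostatin-like fragments, were higher in mandible. Col15a1 gave 117 and 105 in mandible, 68.4 and 45.3 in calvaria and 39.2 and 58.4 in ulna. Col18a1 gave 133 and 115 in mandible, 31.8 and 65.8 in calvaria and 53.4 and 39.4 in ulna. In both genes calvaria and ulna overlapped. Against ulna, mandible was higher by 1.10 for Col15a1 (SE 0.28, adjusted p = 0.00916) and by 1.31 for Col18a1 (SE 0.33, adjusted p = 0.00846), and Col18a1 was also called against calvaria (1.39, adjusted p = 0.0122). The first of these calls ended without mandible array 1 or ulna array 1 (adjusted p = 0.0646 and 0.0666), the second without mandible array 1 or ulna array 2 (0.0652 and 0.0561) and the third without calvaria array 1, mandible array 1 or mandible array 2 (0.0819, 0.0924 and 0.0536). Without calvaria array 1, Col15a1 was called in mandible against calvaria (1.25, adjusted p = 0.0312). A second probe set of Col18a1 differed by 1.91 in calvaria against ulna (adjusted p = 0.0854), where the representative one gave -0.08, and was not called in mandible against calvaria (0.29, adjusted p = 0.834).

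Col7a1, which forms the anchoring fibrils under skin epithelium, and Col26a1 were not called in any comparison. Col7a1 reached 47.6 and 50.5 in mandible, 36 and 30.5 in calvaria and 25.4 and 21.5 in ulna, with a log2 difference of 0.95 in mandible against ulna (adjusted p = 0.0563). Col26a1 gave 52.3 and 44.9 in mandible and between 1.35 and 28.5 on the other arrays.

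The skull sites differed from each other in fewer collagen genes than either did from ulna. In mandible against calvaria 5 of 34 were called higher (Col2a1, Col10a1, Col17a1, Col18a1 and Col27a1) and 4 lower (Col8a1, Col8a2, Col14a1 and Col22a1), where 5.14% and 4.01% of all tested genes were called. Of the 5, Col10a1 and Col17a1 passed the filter through the mandible arrays alone. A further 9 genes passed the adjusted p at under 2-fold. The count of 5 was 2 without mandible array 1, 3 without mandible array 2, 8 without ulna array 1 or ulna array 2, and 0 without moderation of the variances. Over all 42 genes, with 1 probe set each, the summed signal was 52618 to 58097 in calvaria, 55598 to 57092 in mandible and 11155 to 11631 in ulna. Most of it came from types I and III.

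**Figure D3:**
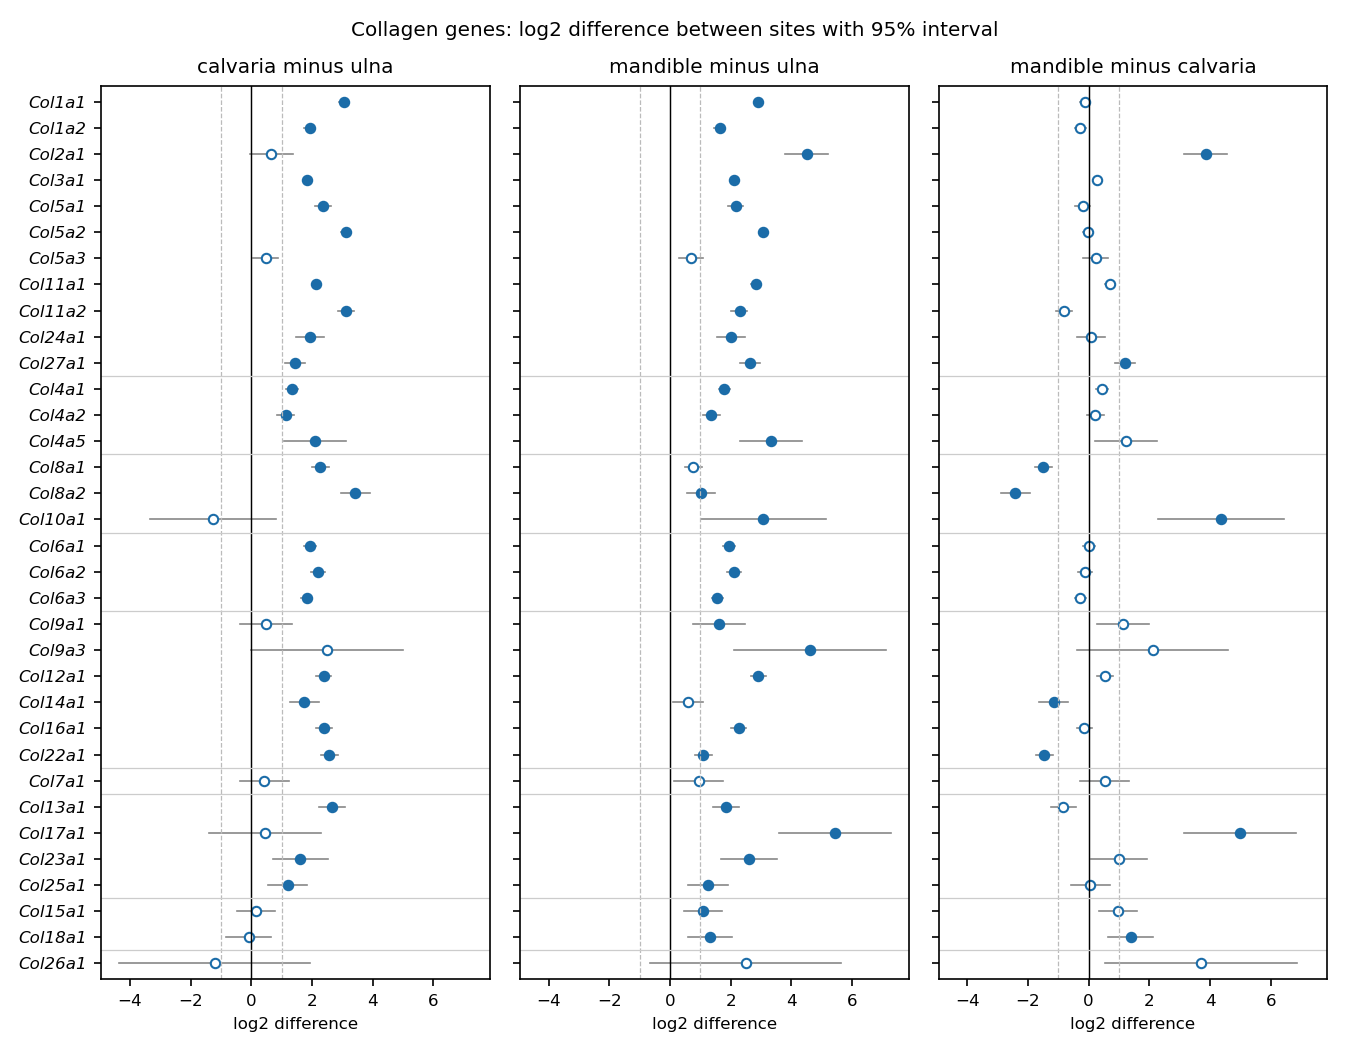
Log2 difference of each of the 34 tested collagen genes (rows, grouped by class with grey lines between classes) in calvaria against ulna, mandible against ulna and mandible against calvaria. Filled points were called, open points were not, bars are 95% intervals of the limma fit and dashed lines mark 2-fold; 24 and 29 filled points lie right of zero in the first panels, and the last panel holds 5 to the right and 4 to the left.

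Over all 55 tested probe sets, the order of the sites was much the same as over genes. In calvaria against ulna 40 were called higher and 1 lower, beside 6.90% and 4.95% of all tested probe sets. In mandible against ulna the counts were 44 and 0, beside 9.36% and 11.3%, and in mandible against calvaria 9 and 8, beside 4.09% and 3.48%. These counts hold probe sets that passed the filter only through sites where they were high. Those of Col9a3, Col10a1 and Col17a1 and the further ones of Col23a1 passed through mandible alone. A further probe set of Col14a1 passed through calvaria alone. The skull arrays alone let in the first probe sets of Col4a5 and Col23a1 and a further probe set each of Col1a2 and Col27a1. Of the 17 genes with several tested probe sets, the probe sets differed in call for 4 genes in calvaria against ulna, 5 in mandible against ulna and 4 in mandible against calvaria. Their sign differed in calvaria for Col1a1, Col4a5 and Col18a1, in mandible against ulna for Col1a1 and Col22a1, and between the skull sites for Col6a2 alone.

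**Figure D4:**
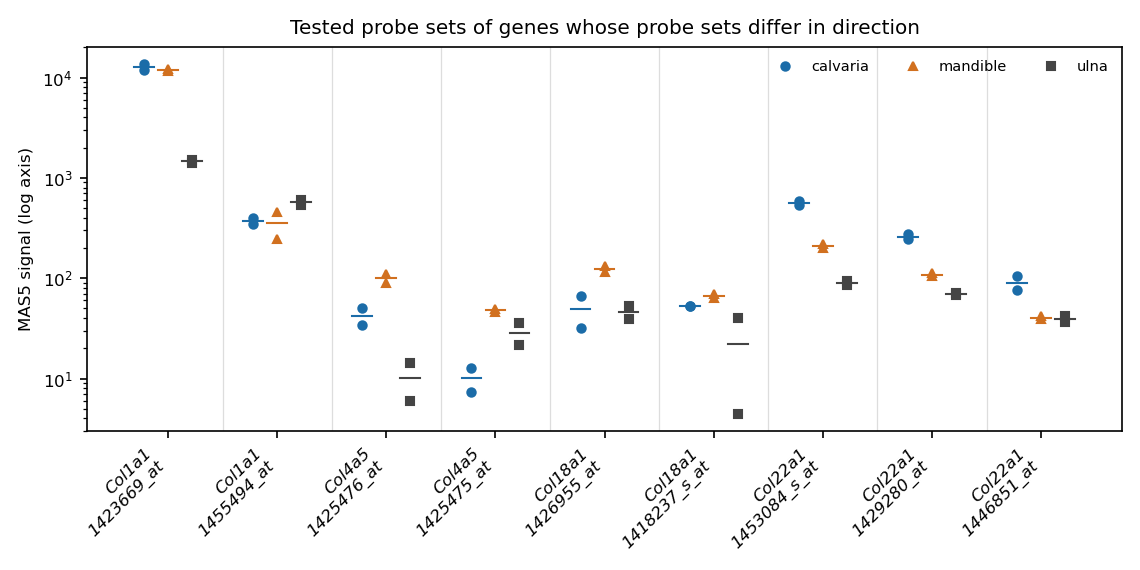
Signal on each array (log axis, MAS5 signal scaled to a trimmed mean of 100) of every tested probe set of Col1a1, Col4a5, Col18a1 and Col22a1, 4 genes whose probe sets differ in direction against ulna, with a point for each of the 2 arrays of a site and a bar for their mean. The second probe set of Col1a1 is highest in ulna while the first is lowest there, and the second probe set of Col4a5 is lowest in calvaria.

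Promoters of 4 genes are shown for the main patterns, each as the 120 bases before the RefSeq start on GRCm38.p6. Col1a2 was high at both skull sites, Col3a1 at both and more so in mandible, Col8a2 highest in calvaria, and Col17a1 high in mandible. Capitals mark 3 strings of letters, each on either strand. They are CCAAT, the box bound by NF-Y and known from type I collagen promoters, and GGGCGG, the GC box bound by Sp1-like factors. The third is TATAAA, the letters of the TATA box. The marked TATAAA ended 111 bases before the start in Col3a1 and 85 in Col17a1, and whether either acts as a TATA box was not tested.
Col1a2, chr6:4505498-4505617, plus strand: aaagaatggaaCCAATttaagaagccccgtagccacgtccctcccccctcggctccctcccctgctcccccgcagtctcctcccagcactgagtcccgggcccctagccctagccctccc
Col3a1, chr1:45311418-45311537, plus strand: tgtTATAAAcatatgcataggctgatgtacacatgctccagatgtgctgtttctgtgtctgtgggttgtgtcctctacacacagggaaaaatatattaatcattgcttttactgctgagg
Col8a2, chr4:126286674-126286793, plus strand: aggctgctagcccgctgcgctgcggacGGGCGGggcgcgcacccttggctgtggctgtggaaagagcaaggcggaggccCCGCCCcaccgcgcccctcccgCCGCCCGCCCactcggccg
Col17a1, chr19:47692043-47692162, minus strand: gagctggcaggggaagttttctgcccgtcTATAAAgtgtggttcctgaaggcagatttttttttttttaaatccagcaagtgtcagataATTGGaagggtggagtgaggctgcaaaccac

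Promoter windows were held for 33 of the 42 genes, 36 windows in all, and searched over the 250 bases before the start. CCAAT or its reverse ATTGG was in 13 windows (36.1%), where 33.8% of 32851 mouse windows of this length held it. GGGCGG or CCGCCC was in 21 windows (58.3%, against 32.7% of all), and TATAAA or TTTATA in 5 (13.9%, against 12.4%). The matches describe letters only, and factor binding was not measured here. The Col8a2 stretch shown above held 4 GC boxes, 2 of them overlapping, and the Col17a1 stretch held none.

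Genes that fold, trim and cross-link collagen chains were also higher in skull. Of 31 listed, 24 were tested, of which 18 were called higher and 0 lower in calvaria against ulna, and 14 higher and 0 lower in mandible against ulna (8.36% and 4.54%, and 11.0% and 10.9%, of all tested genes), with 0 lower at an unadjusted p under 0.05 by limma in both. The medians were 1.98 and 2.04 on the log2 scale. Serpinh1, the collagen chaperone of the endoplasmic reticulum, gave 3453 and 3293 in calvaria, 3464 and 3351 in mandible and 265 and 277 in ulna, with differences of 3.56 and 3.54 (SE 0.07). Pcolce, which speeds the trimming of procollagen ends, differed from ulna by 2.63 and 2.30. Lox, which starts the cross-links, differed by 2.67 and 3.31. Plod2, which hydroxylates the lysines of the chain ends, gave 604 and 652 in calvaria, 2006 and 2125 in mandible and 246 and 299 in ulna, and was the only listed gene called higher in mandible than in calvaria (1.68, SE 0.11, adjusted p = 1.68e-06). Pcolce2 was the only one called lower there (-1.39, adjusted p = 0.00774).

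Of 8 tested collagen receptors, 3 were called higher in calvaria and 4 in mandible against ulna, and 0 lower in either, beside the same shares of all tested genes. At an unadjusted p under 0.05 by limma, 1 was lower in calvaria and 2 in mandible. Ddr2, a receptor kinase for fibrillar collagen, gave 645 and 651 in calvaria, 639 and 592 in mandible and 128 and 167 in ulna, with log2 differences of 2.07 and 1.96 (SE 0.13). Mrc2, which takes up collagen fragments, differed by 2.29 and 2.48, and Itga10, an integrin chain for type II collagen, by 2.01 and 1.86. Ddr1, the receptor kinase of epithelia, was called in mandible alone, against ulna (2.02, adjusted p = 0.000359) and against calvaria (1.48, adjusted p = 0.00589). Lair1, an inhibitory receptor of immune cells, was called lower in mandible than in calvaria (-1.02, adjusted p = 0.00708).

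The genes outside the family whose profile over the 6 arrays was most like that of Col1a1 were Sparc, Pmepa1, Tnc, Igf2 and Fkbp7, with Pearson correlations from 0.999 to 1.000. For Col3a1 they were Plagl1, Fat1, Fam3c, Tvp23b and Pard6g, all at 0.999. Sparc, a collagen-binding glycoprotein of bone, had mean signals of 14866 in calvaria, 13470 in mandible and 2054 in ulna. The 6 arrays form 3 sites of 2, so such correlations describe the order of the 3 sites.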

How the data were processed

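The authors deposited MAS5 signal, an intensity on a linear scale with 1 value per probe set and array, scaled to a 2% trimmed mean of 100. The genome build behind the probe sets is not given in the sources used here. Rat arrays and cell cultures of the study were not analysed here. Of 45101 probe sets, 34958 had 1 symbol, 932 several and 9211 none, updated through RefSeq genes on GRCm38.p6, and 64 control probe sets were left out. The members and gene lists were chosen with earlier results of these data known.

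Values were divided by the array median and put on a log2 scale without an offset. The filter (above the median on at least 2 of 6 arrays) kept 25233 probe sets (55.9%), which stand for 12326 genes. In R 4.3.3, limma 3.58.1 fitted 1 mean per site to all 6 arrays, with trended empirical Bayes moderation (3 residual and 7.67 prior degrees of freedom) and Benjamini-Hochberg adjustment over all probe sets kept. The median standard deviation within a site was 0.194 (log2). Values on all arrays were given for each collagen gene called in at least 1 comparison, and others by range or example; up to 4 called members of other lists, those with the highest mean, were named. The remaining values named beside these were chosen after they were seen. The fit was checked on simulated data. Alternatives changed scaling, filter, offset, moderation, probe set, arrays and replicate block. Plots were drawn with matplotlib 3.10.9.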

Additional observations from a re-analysis of the deposited data

How the results depend on the processing

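Of 62 calls between sites of the collagen genes, 43 were kept under every setting tried. The 75th percentile filter left 10 calls without a value, among them Col4a5 in mandible against ulna, which was kept elsewhere. In mandible against calvaria the 5 higher collagen genes became 0 with no moderation, 9 with an offset of 0.25, 9 on only the 4 arrays compared, 10 by adjusted p alone and 2 to 8 when an array was left out, and the 4 lower became 8 by adjusted p alone. Over all probe sets, the higher and lower counts in calvaria against ulna (1741 and 1250) became 1019 and 764 with the 75th percentile filter, 940 and 626 with no moderation and 3274 and 4201 by adjusted p alone. In mandible against ulna (2362 and 2862) they became 1351 and 1756, 1573 and 1882, and 4237 and 6724. In mandible against calvaria (1032 and 877) they became 675 and 514, 435 and 288, and 2114 and 3418. The causes were not tested, beyond the fewer probe sets tested under the filter and the dropped 2-fold limit.

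Some differences that were not called changed sign, and the cause was not tested. With an array left out, the difference of calvaria from ulna ran from -0.21 to 1.17 for Col9a1, from -0.16 to 0.44 for Col15a1 (-0.15 without calvaria array 1), from -0.58 to 1.47 for Col17a1 and from -0.61 to 0.45 for Col18a1 (0.13 without ulna array 1), and it was 1.91 at the other probe set of Col18a1. That of mandible from calvaria ran from -0.09 to 0.11 for Col6a1 (-0.02 without calvaria array 1), from -0.08 to 0.23 for Col24a1 and from -0.22 to 0.34 for Col25a1. For Col5a2 it became 0.02 with 75th percentile scaling, 0.01 as deposited, 0.03 without calvaria array 2 and 0.01 without mandible array 1.

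Arrays of the same number did not pair, with correlations of -0.00481, 0.00585 and -0.0123 between their deviations. With the replicate block the collagen counts were 24 and 0, 29 and 0, and 6 and 4 for the 3 comparisons. Signals near or below the array median limit what can be said of Col9a3, Col10a1, Col17a1 and Col26a1, whose arrays of a site differed several-fold.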
